A study of Danio rerio with 1109 samples.

Results

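The fibroblasts described here are trunk cells of zebrafish embryos at 48 hpf with at least 20 raw counts of *pdgfra* (ENSDARG00000070494) or *lum* and under 20 of *en1a* (ENSDARG00000014321). The members were chosen by these measured counts alone and made up 482 of 1109 sequenced cells. Of these 482, 47.5% came from the plate of the *pdgfra:mCit* line, and 26.1% and 26.3% from 2 plates of embryos carrying *vegfc:Gal4FF;UAS:GFP;kdrl:mCherry*. The plates are called the *pdgfra* plate and *vegfc* plates 1 and 2, and held 32.9%, 33.1% and 34% of all cells. The numbers only tell the plates apart. Embryos were pooled within a line, their trunks were partly dissociated, and single cells were sorted into wells for full-length sequencing. The *pdgfra:mCit* line carries a fluorescent reporter for *pdgfra*, and the other line marks *vegfc* cells in green through Gal4FF and *kdrl* vessel cells in red. The study sorted mCitrine-positive cells from the first line. From the second it sorted green cells without red, and also red cells without green. No source used here names the sort gate of a single cell. Partial dissociation favours cells near the surface of the trunk, and a reporter need not follow its gene in every cell.

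Each line was sequenced on its own plates, so line, sort, embryo pool and plate cannot be told apart in any value below. Cells of 1 plate are not replicates, 1 plate stands against 2, and no test was made. The question was which genes differed between fibroblasts outside the *en1a* gate of both lines, and whether they differed in the same direction from each *vegfc* plate. The differences themselves chose the genes, so the values given for them are a description.

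Fibroblasts build and remodel connective tissue and are commonly recognised by the growth factor receptor gene *pdgfra*, the collagen genes and the small proteoglycan genes *lum* and *dcn*. In the embryonic trunk they come from several sources, among them the sclerotome and dermomyotome of the somites and the lateral plate mesoderm around the gut and body cavity. Engrailed genes mark fibroblasts of the horizontal myoseptum (HM), the connective tissue sheet that divides the upper and lower trunk muscles, and the *en1a* bound was set to leave these out.

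Members made up 62.7% of the *pdgfra* plate (95% exact Clopper-Pearson interval 57.6 to 67.7), 34.3% of *vegfc* plate 1 (29.5 to 39.4) and 33.7% of *vegfc* plate 2 (28.9 to 38.7). The sort decides these shares in part. Of the members, 98, 76 and 70 passed by *pdgfra* alone on the 3 plates in this order, 34, 11 and 24 by *lum* alone, and 97, 39 and 33 by both. Just inside the gate, with 20 to 24 counts of the higher of the 2 genes, lay 8, 7 and 1 cells, and 12, 6 and 3 cells lay just outside it with 15 to 19. The *en1a* bound was not a bound of 0, since *en1a* was at 0 in only 12, 7 and 28 of the members, and 7, 1 and 0 of them held 15 to 19 counts.

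The collagen gene *col1a1a* reached 20 counts in 100%, 100% and 93.7% of members, and *dcn* in 99.1%, 69% and 63.8%. In cells under the gate for both genes, called ungated cells here (16.4%, 52.9% and 53.8% of the cells of the 3 plates), the shares for *col1a1a* were 100%, 100% and 54.7% and those for *dcn* 90%, 35.1% and 15.8%. Collagen reads were thus found in nearly every well of 2 plates, and *dcn* parted members from ungated cells more clearly on the *vegfc* plates than on the *pdgfra* plate. Median depth was alike, at 295937, 313927 and 331753 gene counts per member on the *pdgfra* plate and *vegfc* plates 1 and 2. Thinned to 50000 counts, members held a median of 3374, 3236 and 2922 detected genes.

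The green reporter showed that few members of the *vegfc* plates were reporter-high. Median eGFP counts were 61.5 and 21 in members of *vegfc* plates 1 and 2, against 984 and 942 in the fibroblasts over the *en1a* gate on the same plates. At least 200 eGFP counts were found in 9.52% and 11% of these members. On the *pdgfra* plate, whose mCitrine protein is a GFP derivative, the median was 59.

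Counts of each gene were summed over the members of a plate and divided by the plate's gene total to give counts per 1000000 gene counts (CPM). A log2 ratio between plates was taken after 5 CPM were added to each value, which understates the difference of genes at low level. A gene was tested where it had at least 10 CPM on 1 plate, 300 counts and 3 cells, which left 11357 genes. Kept as higher were 462 genes (4.07%) at least 2-fold above both *vegfc* plates, and 696 genes (6.13%) were at least 2-fold below both. Counts of called list genes below are to be read beside these shares, since a list with few calls can lie near them. Against *vegfc* plate 1 alone, 1043 genes (9.18%) were higher and 1159 (10.2%) lower. Against *vegfc* plate 2 alone, 816 genes (7.18%) were higher and 1589 (14%) lower. Between the 2 plates of the *vegfc* line, 458 genes (4.03%) were higher on plate 1 and 1076 (9.47%) on plate 2, so 2-fold differences were also frequent within a line. Each of these comparisons shares a plate with another.

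**Figure D1:**
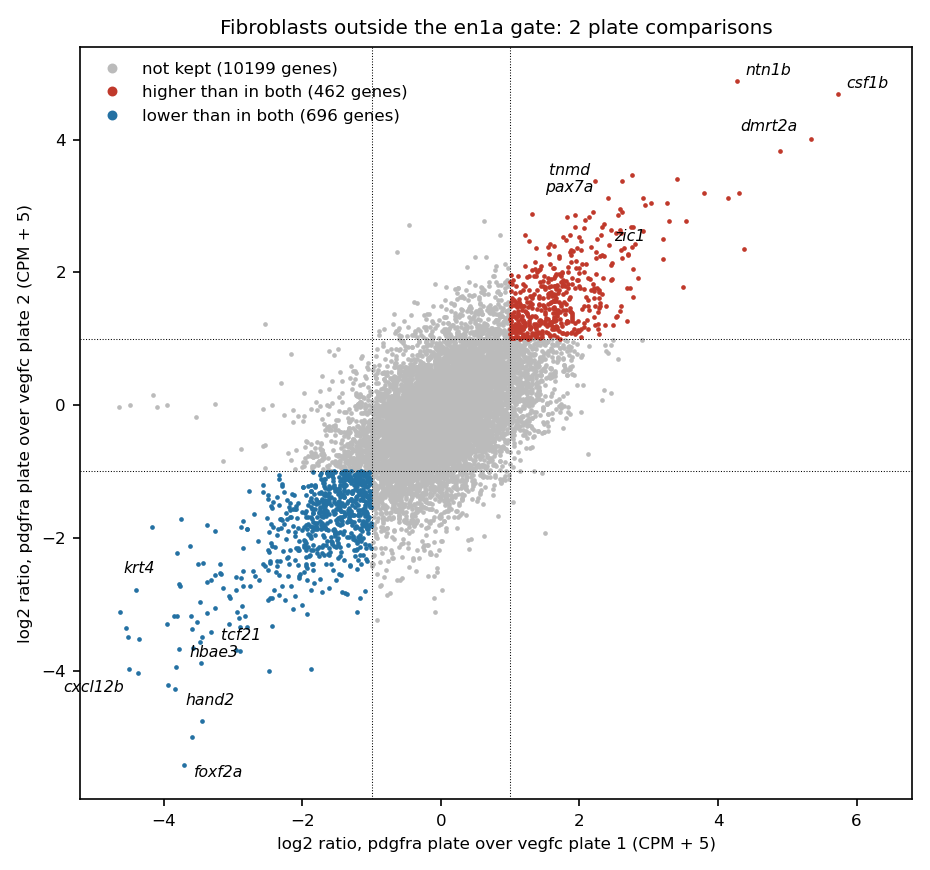
Log2 ratio of the *pdgfra* plate over *vegfc* plate 1 (x axis) and over *vegfc* plate 2 (y axis), with 5 CPM added, for 11357 genes in fibroblasts outside the *en1a* gate. Each point is a gene, dotted lines mark 2-fold, and the 462 red and 696 blue genes are those kept as higher and lower; the axes share the *pdgfra* plate, so the slope of the cloud is partly set by the design.

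The balance of higher and lower calls depended on the scaling. The median log2 ratio over all genes tested was -0.01 against *vegfc* plate 1 and -0.17 against plate 2. Scaling with TMM factors raised ratios against plate 2 by up to 0.25 and against plate 1 by up to 0.01, and 583 genes were then higher and 592 lower. Higher calls made up 39.9% of the kept genes with CPM and 49.6% with TMM. After the 3 cells with most counts of a gene were removed from each plate, 443 of the 462 and 439 of the 696 genes were still called, though 3 cells are a larger part of a *vegfc* plate's members than of the *pdgfra* plate's. With the level filter and the calls made anew on the remaining cells, the balance turned, with 6.25% of the 11357 genes higher and 4.04% lower.

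Transcription factors of the somites and their derivatives were among the genes higher on the *pdgfra* plate. *dmrt2a* (ENSDARG00000015072), a DM-domain factor of early somites, was at 326.2 CPM on the *pdgfra* plate, 3.16 on *vegfc* plate 1 and 15.6 on *vegfc* plate 2. It reached 20 counts in 28.8%, 0.794% and 2.36% of members, and the log2 ratios were 5.34 and 4.01. Both *vegfc* plates were thus low and the *pdgfra* plate alone was high.

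*pax7a* and *pax7b* encode paired-box factors of the dermomyotome and of muscle and pigment precursors. *pax7b* was at 83 CPM on the *pdgfra* plate, against 2.55 and 7.89 on *vegfc* plates 1 and 2 (log2 ratios 3.54 and 2.77). *pax7a* was at 143.9, 23 and 12.2 CPM (2.41 and 3.12) and reached 20 counts in 27.9%, 6.35% and 3.94% of members. Both paralogs were thus high on 1 plate and low on the other 2. Ungated cells had *pax7a* at 20 counts in 38.3%, 12.9% and 17.7%, above the members' share on each plate, so the members' share alone is not read as expression by fibroblasts.

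*zic1*, a zinc-finger factor of the dorsal trunk, was at 473, 89 and 67.1 CPM (log2 ratios 2.35 and 2.73), and 45.4% of *pdgfra* plate members reached 20 counts against 26.7% of ungated cells there. The T-box factor gene *tbx15* was at 74.2, 6.68 and 2.18 CPM. *uncx4.1*, a homeobox gene that marks the posterior sclerotome in the mouse, was at 330, 61.7 and 47.4 CPM. All 3 genes were several-fold higher on the *pdgfra* plate than on either *vegfc* plate, with *tbx15* carried by the fewest cells (11.4% on the *pdgfra* plate).

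The cells with these factors overlapped in part. On the *pdgfra* plate, 48 of the 66 members with 20 counts of *dmrt2a* also had 20 of *pax7a*, which 64 members (27.9%) had. For *myf5*, an early myogenic factor gene, 28 of 38 cells had *pax7a*. *zic1* went less with *pax7a*, in 21.2% of its cells, and *tnmd* hardly at all, in 1 of 39. The paralog of the gate gene, *en1b*, reached 20 counts in 35 members of the *pdgfra* plate, 0 of *vegfc* plate 1 (a share of up to 2.38% by the floor of 3 cells, and of up to 2.89% by the exact Clopper-Pearson interval) and 3 of *vegfc* plate 2, and 23 of those 35 also had *pax7a*. The bound on *en1a* thus left cells with *en1b* mainly on 1 plate, and without cells over 20 counts of *en1b* 474 genes were higher and 719 lower.

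Secreted factors followed. *csf1b* (ENSDARG00000068263), a ligand of the Csf1 receptor used by macrophages and pigment cells, was at 264.3 CPM on the *pdgfra* plate, 0.0764 on *vegfc* plate 1 (3 counts, 95% Poisson interval 0.0158 to 0.223) and 5.4 on *vegfc* plate 2. It reached 20 counts in 60, 0 and 1 members of the 3 plates, and the highest single cell was at 3600, 3.14 and 822 CPM. The gene was therefore near absent in the members of both *vegfc* plates at this depth. These intervals cover counting error only, and reads made by PCR without molecular identifiers are not independent molecules.

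*ntn1b*, which encodes the guidance cue netrin 1, was at 270, 9.15 and 4.38 CPM, and its paralog *ntn1a* at 197.2, 58.6 and 84.8 CPM. *SEMA3A*, a secreted semaphorin given in capitals because the files' identifiers map to no single zebrafish symbol, was at 158.8, 3.26 and 12.8 CPM. In the same order *sema3e* was at 198.4, 91.3 and 66.4 CPM. Of 32 guidance genes tested, these 4 were higher and 6 were lower, among them *NRP1*, a semaphorin and VEGF coreceptor gene, at 4.11, 126.6 and 77.8 CPM. The ligands *csf1b* and *ntn1b* were shared by 36 cells of the *pdgfra* plate, of 60 and 67 with each.

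*FGF8* (ENSDARG00000003399), a fibroblast growth factor gene, had 48.1 CPM on the *pdgfra* plate and no count in members of either *vegfc* plate. Against a floor of 3 counts per plate its summed count was at least 629-fold and 707-fold higher. That bound treats reads as independent and leaves out the sampling of cells. The signal came from 15 cells of the *pdgfra* plate, with up to 1360 CPM in 1 cell. Another identifier named *FGF8* (ENSDARG00000039615) was also kept as higher, at 46.9, 3.57 and 3.6 CPM, so it did have counts on the *vegfc* plates.

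Antagonists of TGF-beta family ligands went both ways. *grem2b*, a BMP antagonist gene, was at 338.4, 37 and 36.5 CPM (log2 ratios 3.03 and 3.05), and *fsta*, the activin antagonist follistatin, at 673, 118.2 and 103.6 CPM. Of 32 BMP and TGF-beta genes tested, *grem2b*, *fsta* and *BAMBI* were higher and *gdf6a*, *INHBA* and *chrd*, the BMP antagonist chordin, lower, with median log2 ratios of -0.31 and 0.09. For *grem2b* and *fsta*, ungated cells of the *pdgfra* plate reached 20 counts in 33.3% and 41.7%, against 32.8% and 39.3% of members, so neither share is read as particular to fibroblasts.

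Matrix genes were called in both directions. *fbln7*, a fibulin of the extracellular matrix, was at 363.5, 7.31 and 20.9 CPM (log2 ratios 4.9 and 3.83), and *prelp*, a small leucine-rich proteoglycan gene, at 179.04, 14.2 and 17.3 CPM. *HAPLN1*, a hyaluronan link protein gene, was at 218.1, 24.5 and 31.1 CPM, while its relative *hapln1a* was lower (log2 ratios -1.42 and -1.35). Of the 2 identifiers named *OGN*, an osteoglycin gene, 1 was at 439, 88.9 and 90.6 CPM. Of 46 matrix genes and matrix enzymes tested, 10 were higher and 7 lower. Both identifiers named *FN1*, the fibronectin gene, were lower, at 27.9, 148.9 and 103.8 CPM and at 70.9, 154.98 and 255.8 CPM. Of 30 collagen chains, *col6a2* and *col6a3* were higher and *COL2A1* (1 identifier), *col8a1a* and *col9a2* lower, with median log2 ratios of -0.11 and -0.04.

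Of the other ranked genes, *fgl1* encodes a fibrinogen-like secreted protein, *gpm6ab* a membrane proteolipid, *AQP3* a water and glycerol channel, *ucp1* a mitochondrial uncoupling protein and *tmtc2a* a mannosyltransferase of the endoplasmic reticulum. *fgl1* was at 543 CPM on the *pdgfra* plate, against 34.4 and 54.8. *AQP3* was at 515, 63.8 and 55 CPM. The remaining 3 lay between 121.9 and 327.2 CPM on the *pdgfra* plate and between 7.9 and 33.6 CPM on the *vegfc* plates.

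Enzymes of phenylalanine and tyrosine breakdown were another group, picked after their values were seen. *pah*, phenylalanine hydroxylase, was at 716, 172.8 and 125.4 CPM. *HPD*, which acts on the tyrosine product hydroxyphenylpyruvate, was at 671, 131.7 and 108.6 CPM, and *fah*, the last enzyme of the pathway, at 456, 71 and 86.1 CPM. *gch1* and 1 of 3 identifiers named *QDPR*, which make and recycle the cofactor of *pah*, were at 93.5, 19.2 and 14.6 CPM and at 498, 100.8 and 83.9 CPM. On the *pdgfra* plate 80 of the 92 members with *pah* also had *HPD*, while only 7 of them had *pax7a*. The *pah* share was 40.2% in members and 15% in ungated cells of that plate.

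Tendon genes were higher in part. *tnmd*, the tendon membrane protein tenomodulin, was at 134.9, 24.9 and 8.46 CPM and reached 20 counts in 17%, 6.35% and 1.57% of members. It was at 5.0%, 0% and 0.985% in ungated cells. *SCX*, the tendon factor scleraxis, was at 122.1, 38.2 and 21.4 CPM, and *fmoda* (fibromodulin) at 2516, 1203 and 881 CPM. Of 12 tendon genes tested these 3 were higher, *kera* was lower, and the list's median log2 ratios were -0.05 and 0.22.

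**Figure D2:**
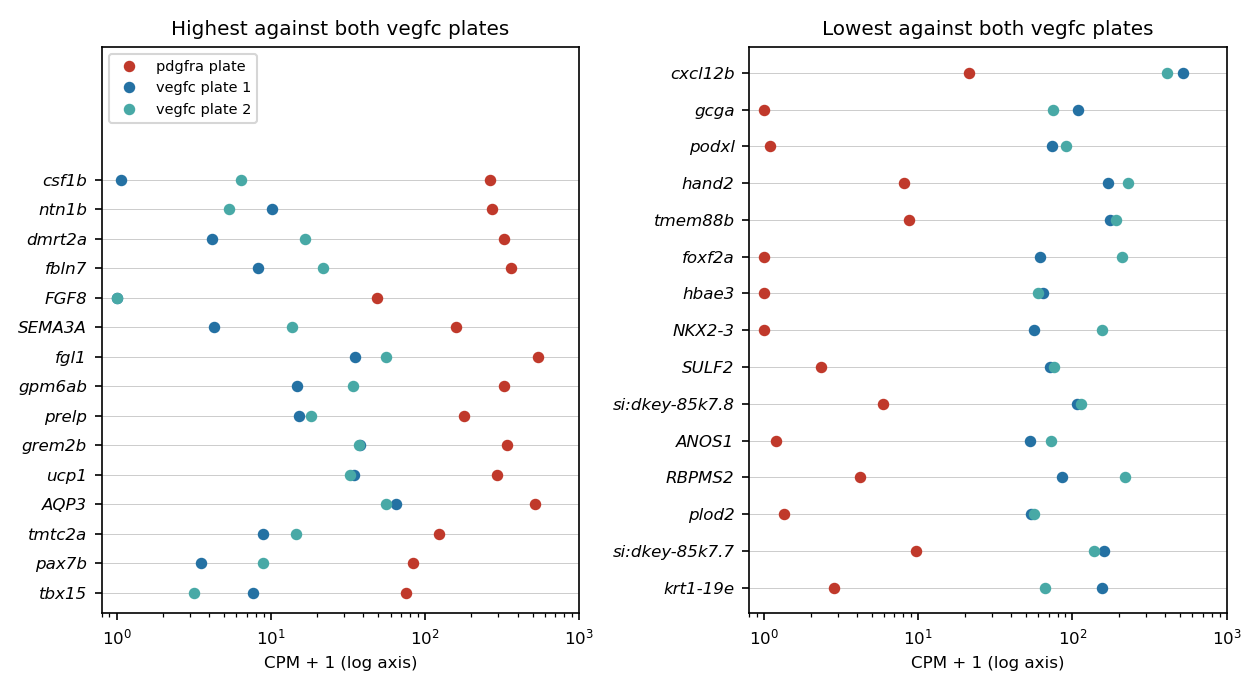
CPM of summed member counts, with 1 added and on a log axis, for the 15 genes ranked highest and the 15 ranked lowest by the smaller of their 2 log2 ratios. Each point is a plate; in each row of the left panel the *pdgfra* plate lies to the right of both *vegfc* plates, and in the right panel to the left of both.

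Genes of the gut mesenchyme and the body cavity lining were among those lower on the *pdgfra* plate. *hand2*, a factor gene of lateral plate mesoderm, was at 7.12 CPM on the *pdgfra* plate and at 168.97 and 228.9 CPM on *vegfc* plates 1 and 2 (log2 ratios -3.84 and -4.27). It reached 20 counts in 2.18%, 21.4% and 26.8% of members, against 0%, 3.09% and 5.42% of ungated cells. Both *vegfc* plates were high, and few cells outside the gate had the gene.

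*foxf2a*, a forkhead gene of visceral mesenchyme, had no count in any member of the *pdgfra* plate, against 60.6 and 208.7 CPM. With the floor of 3 counts per plate the summed count was at least 1430-fold and 4930-fold lower. *NKX2-3*, a homeobox gene of gut mesenchyme, had likewise no count there and 55.3 and 154.8 CPM on the *vegfc* plates, at least 1310-fold and 3660-fold lower. These bounds treat reads as independent and leave out the sampling of cells. By cells, *foxf2a* reached 20 counts in 10.3% and 19.7% of *vegfc* plate members and *NKX2-3* in 8.73% and 18.9%. On the *pdgfra* plate the floor of 3 cells allows a share of up to 1.31%. Levels of both genes differed between the *vegfc* plates by more than 2-fold. Of 6 visceral mesenchyme genes tested, *foxf1*, *foxf2a*, *foxf2b*, *hand2* and *nkx3.3* were lower and 0 higher, with median log2 ratios of -2.39 and -3.59.

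*podxl*, a sialomucin gene of mesothelium and vessel lining, was at 0.0846 CPM (6 counts), 72.3 and 89.6 CPM. The adhesion gene *jam2b* was at 19.2, 153.5 and 132.6 CPM, and *tcf21*, a factor gene of mesothelial and visceral fibroblast precursors, at 0, 44.8 and 48.7 CPM. *osr1*, an early lateral plate and kidney factor gene, was at 0.141, 54 and 44.3 CPM. Of 10 mesothelium genes tested, *jam2b*, *podxl*, *WT1* and *tcf21* were lower and 0 higher. The list's median log2 ratios were -0.46 and -1.22. Its summed level was 2736, 3692 and 2573 CPM, so in sum the *pdgfra* plate was not below *vegfc* plate 2.

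These cells overlapped on both *vegfc* plates. *foxf1* was found in 15 of 27 and 21 of 34 cells with *hand2*, *NKX2-3* in 8 of 13 and 19 of 25 with *foxf2a*, and *jam2b* in 11 of 16 and 13 of 14 with *podxl*. *gcga*, the glucagon gene, had no count on the *pdgfra* plate and 108.1 and 73.5 CPM on the *vegfc* plates. It came from 11 and 10 cells, of which 9 and 9 also had *podxl*.

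*TAGLN*, *RBPMS2* and *PTGS2* were also lower on the *pdgfra* plate, and *TAGLN* and *PTGS2* were picked after their values were seen. *TAGLN* (ENSDARG00000033466), the smooth muscle transgelin gene, was at 28.1, 241.8 and 329.5 CPM and reached 20 counts in 8.73%, 49.2% and 49.6% of members, and in 15%, 41.8% and 34.5% of ungated cells. The other identifier named *TAGLN* was at 9.59, 42.7 and 97.2 CPM. *RBPMS2*, an RNA-binding protein gene of visceral smooth muscle, was at 3.22, 84.6 and 217.5 CPM. Another identifier named *RBPMS2* (ENSDARG00000079578) was lower by less, with log2 ratios of -2.09 and -1.56. *PTGS2* (1 of 2 identifiers), a prostaglandin synthase gene, was at 19, 180 and 204.4 CPM. Each of the 4 identifiers given with CPM was at least 4-fold lower on the *pdgfra* plate. The share of cells with the first *TAGLN* identifier was higher in ungated cells than in members on the *pdgfra* plate and lower on both *vegfc* plates.

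*cxcl12b* (ENSDARG00000055100), a chemokine gene for Cxcr4, had the lowest place in the ranking, at 20.3, 518 and 412 CPM (log2 ratios -4.37 and -4.04). It reached 20 counts in 4, 45 and 42 members (1.75%, 35.7% and 33.1%), and in 6.67%, 10.3% and 7.39% of ungated cells. Few of these cells were *hand2* cells, with 5 of 45 and 2 of 42 holding both, and 2 of 45 and 2 of 42 held *podxl*. Its paralog *cxcl12a* was at 121.9, 44.7 and 250 CPM, which lay between the 2 *vegfc* plates. Of 22 chemokine and growth factor genes tested, *csf1b* and *IGFBP5* were higher and *cxcl12b*, *pdgfba*, *igfbp7* and *angpt1* lower.

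Hedgehog pathway genes were lower or not called. The pathway runs from secreted ligands over patched receptors to Gli factors, and *gli1* and *hhip* are transcribed in responding cells. *gli1* was at 19.3, 106.5 and 85.4 CPM and *hhip* at 34.1, 279.3 and 169.4 CPM. Of 16 genes tested, 5 were lower, among them these 2, and 0 higher, and the list's median log2 ratios were -0.68 and -0.56. *ptch1* was at 13.4, 25.6 and 125.9 CPM and differed by 2-fold only from *vegfc* plate 2.

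Of 18 sclerotome genes tested, *nkx3-2*, *foxd1* and 1 of 2 identifiers named *PAX1* were lower and 0 higher. The list did not include *uncx4.1*, which was higher as given above, so sclerotome genes did not all go 1 way. *foxd1* was at 56.5, 176.3 and 221.4 CPM. Of 9 genes of HM fibroblasts, *itgbl1*, *ndnfl*, *sned1*, *pappab* and 1 of 2 named *NUAK1* were lower, while *en1b* was higher. Of 34 Hox genes, which follow position along the trunk, 1 (*HOXC12*) was lower and 0 higher. The Hox counts lay near or under the 6.13% lower and 4.07% higher over all genes and are not read as a result. The HM list had median log2 ratios of -1.35 and -1.42. At least 2 HM genes at 20 counts were found in 8.73%, 19% and 19.7% of members. In ungated cells the shares were 13.3%, 9.79% and 11.8%. The source of this difference was not tested.

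Among genes of lymphatic growth, *vegfc* was at 3.61, 20.5 and 43.2 CPM and *vegfd*, its close relative, at 58.1, 19.5 and 7.21 CPM. Only the *vegfc* plates were sorted with a *vegfc* reporter, so the sort may set part of the *vegfc* difference, which was not tested. The *vegfc* share was 0.437%, 7.14% and 16.5% of members, so the gene was low and carried by few cells on all plates. *kdrl*, a VEGF receptor gene and the source of the red reporter, was at 17.2, 67.2 and 66.1 CPM. The processing genes were not kept, with *ccbe1* at 26.1, 25.7 and 75 CPM, *adamts3* at 24.8, 11.7 and 34.4 CPM and *adamts14* between 1.13 and 4.71 CPM. *svep1* was at 19.3, 29.4 and 77 CPM.

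**Figure D3:**
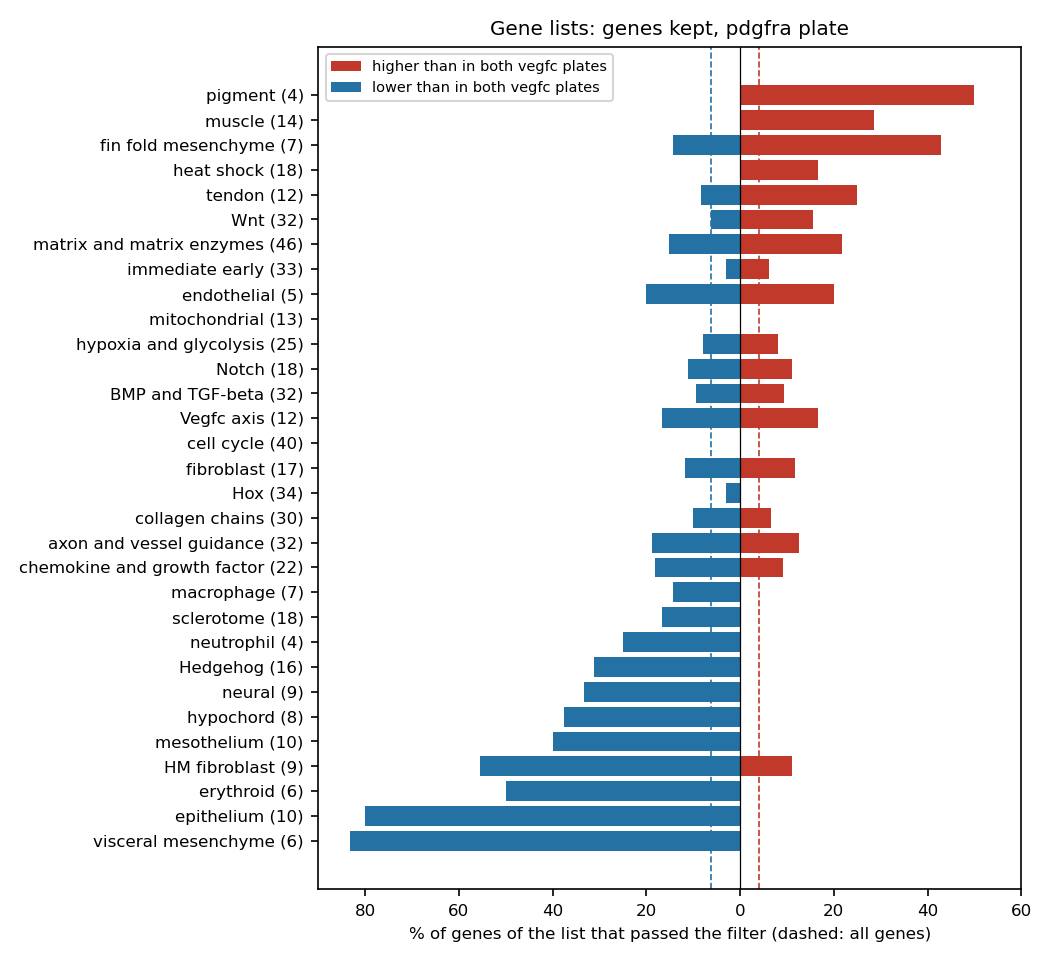
Share of the tested genes of each list that were kept as higher (red, to the right) or lower (blue, to the left) on the *pdgfra* plate, with the number tested in brackets. Dashed lines give the shares over all genes, 4.07% and 6.13%; visceral mesenchyme and epithelium lists lie farthest to the left, and the lists were chosen with results of these data known.

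Cell cycle genes were not kept by this rule. Of 40 tested, 0 were kept in either direction, and 0 of 13 mitochondrial genes were, beside 4.07% higher and 6.13% lower over all genes. The cell cycle list's median log2 ratios were 0.03 and -0.47. *mki67* or *top2a* reached 20 counts in 25.3% (19.8 to 31.5), 21.4% (14.6 to 29.6) and 32.3% (24.3 to 41.2) of members. The intervals of the 3 plates overlapped, but they cover counting error within a plate only and are no test between plates. *mki67* was at 135.3, 138.7 and 304.6 CPM, so it differed by 2-fold between the plates of 1 line.

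Wnt genes were higher in 5 of 32 (*wnt10a*, *frzb*, *rspo2*, *notum1a* and *nkd2b*) and lower in 2 (*FZD8* and *dkk2*). Of 18 Notch genes, the ligand gene *dlc* and 1 of 2 identifiers named *dld* were higher, and the receptor gene *notch3* and the ligand gene *jag1b* lower. *jag1b* was at 31.9, 205.3 and 114.7 CPM and *notch3* at 18.1, 46.8 and 168.1 CPM. The median log2 ratios were 0.1 and 0.14 for the Wnt list and -0.58 and -0.53 for the Notch list. Of 33 immediate early genes, *fosaa* and *egr3* were higher and *klf2b* lower, and of 25 hypoxia and glycolysis genes, *pgam1a* and *LDHB* were higher and *pfkfb3* and *PDK2* lower. Beside 4.07% higher and 6.13% lower over all genes, neither of these short counts is read as a result about the list.

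The shares of 2 marked kinds of cells differed between the plates more than the cycling share. Their markers were kept as lower genes, so this follows from the choice of genes. *myod1* or *myog*, which were not kept, reached 20 counts in 5.24% (2.74 to 8.97), 3.97% (1.3 to 9.02) and 2.36% (0.49 to 6.75) of members. *foxf1* or *foxf2a* reached 20 counts in 1.75% (0.478 to 4.41), 19.8% (13.3 to 27.9) and 25.2% (17.9 to 33.7) of members. For *jam2b* or *podxl* the shares were 6.11% (3.38 to 10), 27% (19.5 to 35.6) and 20.5% (13.8 to 28.5). For both *foxf1* or *foxf2a* and *jam2b* or *podxl*, the *pdgfra* plate's share lay below those of both *vegfc* plates. The intervals cover counting error among the cells of 1 plate only and are no test between plates. In ungated cells of *vegfc* plate 2 *jam2b* or *podxl* stood at 19.7%, close to the members, so the share there does not set members apart. Fewer cells of a kind and less RNA per cell both lower a plate's sum, and the sums do not tell them apart.

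**Figure D4:**
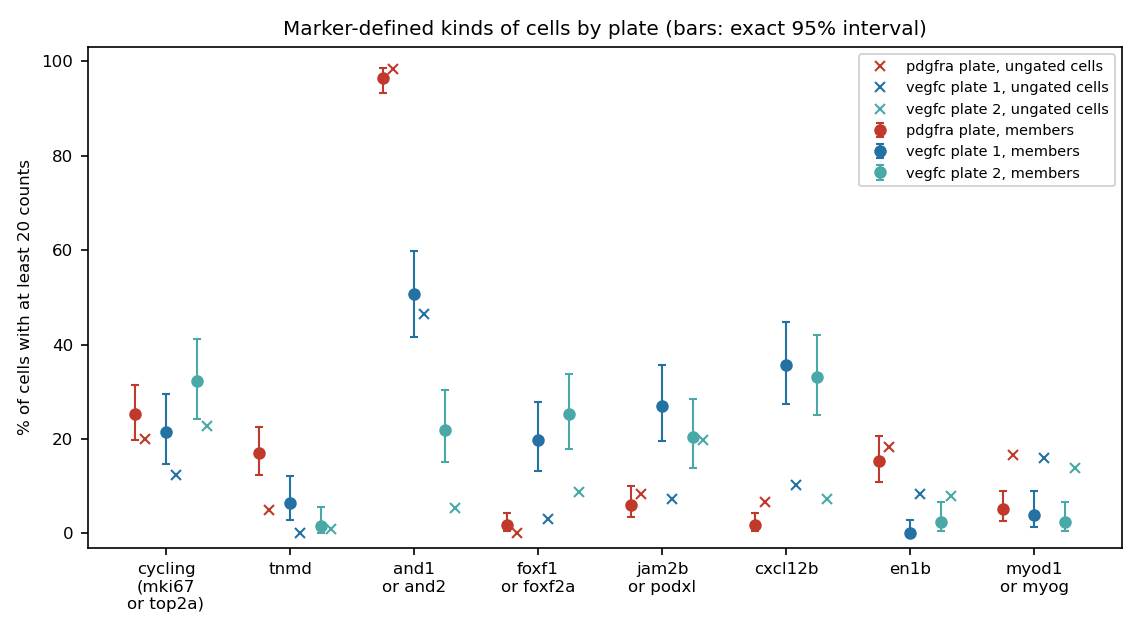
Percent of cells with at least 20 counts of the markers named below the axis, for members (circles, with exact 95% Clopper-Pearson bars) and ungated cells (crosses) of each plate. *and1* or *and2* stands at 96.5%, 50.8% and 22% of members and close to that in ungated cells of the *pdgfra* plate and *vegfc* plate 1, while *cxcl12b* stands apart from the ungated cells on both *vegfc* plates.

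Some differences held for the whole plate. *and1* and *and2*, the actinotrichia protein genes of the fin fold, were at 2252, 443 and 467 CPM and at 2338, 396 and 315.6 CPM. At least 1 of them reached 20 counts in 96.5%, 50.8% and 22% of members, in 98.3%, 46.4% and 5.42% of ungated cells and in 98.7%, 36.2% and 8.51% of fibroblasts over the *en1a* gate. The share thus did not set members apart from the other cells of the *pdgfra* plate, and whether the reads came from the cells themselves was not tested. *hsp70l*, a heat shock gene, was at 1418, 240 and 558 CPM, with 99.6%, 34.1% and 66.1% of members and 100%, 36.1% and 60.1% of ungated cells at 20 counts. Of 18 heat shock genes tested, *hsp70l*, *hsp70.1* and *hsp90aa1.1* were higher and 0 lower.

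Of the markers of other cell types, those of epithelium and part of the erythroid ones moved with the lower genes. Of 10 epithelium markers tested, 8 were lower and 0 higher, and the summed level of the list was 24.3, 931 and 390 CPM. The keratin gene *krt4* reached 20 counts in 3.49%, 57.9% and 27.6% of members and in 8.33%, 75.8% and 36.9% of ungated cells, above the members on each plate. *hbae3*, an embryonic globin gene, had no count on the *pdgfra* plate and 63.6 and 58.6 CPM on the *vegfc* plates, where 35.7% and 29.9% of members and 42.3% and 32% of ungated cells had 20 counts. *krt1-19e* was at 1.82, 153.7 and 64.9 CPM and at 30.2% of members and 30.9% of ungated cells of *vegfc* plate 1. On *vegfc* plate 2 *krt1-19e* was at 5.51% of members and 4.43% of ungated cells. The shares of *krt4* and *hbae3* are therefore not read as expression by fibroblasts, and the source of the reads was not tested.

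At least 2 epithelium markers at 20 counts were found in 0%, 37.3% and 3.94% of members, and at least 2 neutrophil markers in 2.18%, 34.1% and 3.15%. In ungated cells the same shares were 3.33%, 55.2% and 13.3%, and 6.67%, 39.7% and 12.3%. *vegfc* plate 1 thus carried most of the epithelium and neutrophil reads. Summed erythroid markers were at 2.72, 104.04 and 204.7 CPM, with 6 of 7 at 0 on the *pdgfra* plate, macrophage markers at 50.2, 83.8 and 197.5 CPM, neutrophil markers at 43.8, 288.7 and 119.1 CPM and neural markers at 30, 87.7 and 205.1 CPM. Hypochord markers were at 739, 1081 and 474 CPM and endothelial markers at 158.8, 190 and 145.6 CPM. Muscle markers went the other way, at 725, 360 and 220 CPM, where *myf5*, *pax7a*, *pax7b* and *pax3a* of 14 were higher. At least 2 muscle markers at 20 counts were found in 43.7%, 20.6% and 7.87% of members. In ungated cells the shares were 63.3%, 35.6% and 30.5%, above the members on each plate. Leaving out every cell with 2 markers of another class left 52.8%, 29.4% and 73.2% of the members of the 3 plates. There, 689 genes were higher and 791 lower, and 76.4% of the higher and 59.6% of the lower genes were called again. The marker lists hold kept genes, such as *pax7a* and *krt4*, so these shares are no separate check on such cells or reads. The part of such cells or reads in the single genes was not tested.

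Over all kept genes, 76 of the 462 higher genes (16.5%) had a share of cells at 20 counts on the *pdgfra* plate at or below that of its ungated cells, with medians of 16.4% in members and 8.33% in ungated cells. For 21.4% of the 696 lower genes this was so on both *vegfc* plates, with medians of 11.8% and 8.87%. Any excess over the ungated share, however small, kept a gene out of these counts. For a lower gene, an excess on either *vegfc* plate was enough. The counts therefore do not decide how many kept genes were plate-wide. Ungated cells are a mixture that may itself use a gene.

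Reads of 2 annotations can be shared. *tmem88b* was at 7.73, 175.4 and 191.6 CPM and *si:dkey-85k7.8* at 4.88, 105.4 and 112.6 CPM. They reached 20 counts in 80 and 79 members, 79 of them the same, with Pearson's r = 0.998 between their counts over the 482 members. They are treated as 1 signal, since the counting may have split the reads of 1 transcript. The noncoding gene *si:dkey-85k7.7*, which lies near *tmem88b* in the RefSeq annotation of GRCz12tu, was at 8.69, 160 and 136.5 CPM. Others of the lowest ranks were *ANOS1*, the matrix protein anosmin (0.198, 52.2 and 71.8 CPM), *SULF2*, a heparan sulfate sulfatase (1.33, 70.13 and 74.8 CPM), and *plod2*, a collagen lysyl hydroxylase (0.339, 53 and 55.5 CPM).

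The fibroblasts over the *en1a* gate on the same plates (76, 47 and 47 cells), which were not used to find the genes, were compared by the same rule. Of 10204 genes tested there, 838 (8.21%) were higher on the *pdgfra* plate than on both *vegfc* plates and 694 (6.8%) lower. Of the 462 higher genes, 77.7% were tested there, and of these 37.6% were again higher and 9 genes lower. Of the 696 lower genes, 66.4% were tested, and of these 34.2% were again lower and 12 genes higher. Both shares lay above the shares over all genes. The median log2 ratios of the higher genes were 1.12 and 0.97 there, against 0.18 and 0.0 over all genes, and those of the lower genes were -1.02 and -0.96. These cells share line, sort, pool and plate with the members, so a difference seen in both is no separate sign of the line.

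Genes split by what they did there. *csf1b* was again higher over the *en1a* gate, at 63.3, 1.3 and 0 CPM, and so was *dmrt2a*, at 270, 0.26 and 22.1 CPM, and *zic1*, at 125.97, 14.4 and 0.333 CPM. *fgl1* was instead at 1705, 1593 and 1568 CPM, *pax7a* at 315.5, 237.3 and 305.4 CPM and *prelp* at 59.5, 58.6 and 58.4 CPM. These 3 differed by under 2-fold between plates over the *en1a* gate. *fbln7* (1031, 600 and 481 CPM) and *gpm6ab* (723, 294.1 and 456 CPM) were also on the *vegfc* plates far above their levels in members. *cxcl12b* did not keep its direction, at 43.6, 9.72 and 33.1 CPM, and *foxf2a* was at 0, 0.954 and 94.3 CPM. *hbae3* was at 0, 64.5 and 29.8 CPM, near its level in members on *vegfc* plate 1 and below it on plate 2. Of the 14 higher and 10 lower ranked genes that were tested there, 6 and 4 were called in the same direction and 0 in the opposite one.

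**Figure D5:**
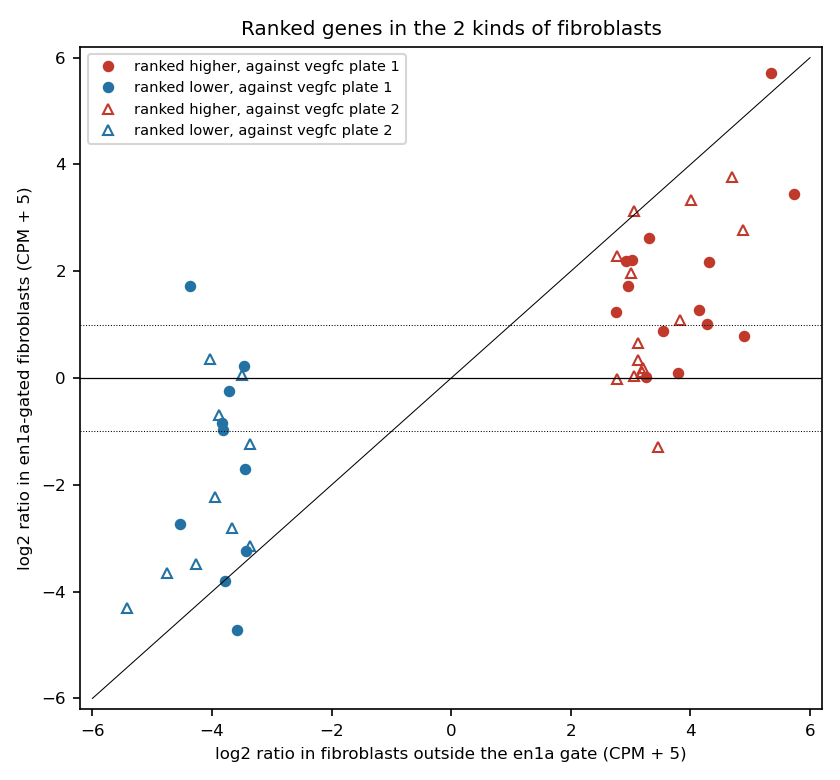
Log2 ratio of the *pdgfra* plate over *vegfc* plate 1 (circles) and plate 2 (triangles) in fibroblasts outside (x axis) and over (y axis) the *en1a* gate, with 5 CPM added, for the 14 higher and 10 lower ranked genes tested in both. The solid diagonal marks equal ratios and dotted lines mark 2-fold; many points lie near 0 on the y axis, and 6 and 4 genes lie past 2-fold the same way on both plates.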

How the data were processed

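Single cells of embryo trunks were measured by Smart-seq2 on 3 plates (2 lines). The authors deposited raw read counts per gene and cell, not normalized. Per the labels and methods, reads were aligned to GRCz11 with Bowtie2 and TopHat2, counted with featureCounts, and cells were kept by depth, genes and spike-in share. Strand use in counting is not given in the sources used here. The table held 32151 rows: 32057 genes, 92 spike-ins and 2 reporters, which were left out of totals. Depth of the members lay between 50045 and 782140 gene counts. No doublet caller was run here. Wells were meant to take 1 sorted cell, and the study removed cells with very many detected genes as potential doublets. Doublets among the members were not tested.

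Counts were summed per plate and analysed with Python 3.11.15 (numpy 2.4.6, pandas 2.3.3, scipy 1.17.1). TMM factors came from edgeR 4.0.16 in R 4.3.3, used for scaling only. Cells are not replicates, so no test was run. Recovery of known differences of 4-fold or more was tried on simulated plate sums. It does not cover 2-fold calls or genes carried by few cells. Members, the 31 gene lists and the alternatives were chosen with earlier results of these data known. Named genes were the 15 highest and 15 lowest with a symbol, ranked by the smaller of the 2 log2 ratios and still called without the 3 highest cells of each plate, the called genes of each list, and genes of Vegfc processing. Genes added for their values are said to be so, or are *fsta*, *zic1*, *uncx4.1*, *osr1*, *PTGS2* and *TAGLN*. Symbols matched 28991 of 32057 identifiers, and 643 of 731 listed symbols. Names in capitals are those of the table where no single zebrafish symbol fits.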

Additional observations from a re-analysis of the deposited data

How the results depend on the processing

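Counts of kept genes are given as a percent of the 11357 genes tested, 4.07% higher and 6.13% lower. A pseudocount of 1 CPM gave 9.62% lower and 10 CPM gave 3.89%. A 4-fold bound left 0.537% and 0.951%. A difference of 20 points in the share of cells, in place of the fold, gave 1.08% and 0.722%. Leaving out the 3 highest cells of each plate for every gene, with the level filter applied to the rest, gave 6.25% and 4.04%. Without every marked kind of fibroblast only 4, 22 and 45 cells were left, with 7.43% and 34.5%. Without *vegfc* plate 1 the values were 7.18% and 14%, and without *vegfc* plate 2 they were 9.18% and 10.2%. In the other settings, among them other gates, scalings and thinning, the counts stayed within 1.5 times. Settings added after the data were seen gave 600 and 762 genes without marked kinds when *and1* and *and2* cells were retained, 564 and 699 without visceral and mesothelium marker cells, and 451 and 747 without cells with 2 HM genes.

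Of 600 values of the 30 ranked genes over 20 settings, 577 were past 2-fold, 23 were under it and 3 turned sign: *prelp* (-1.83) and *ucp1* (-0.11) without the marked kinds, and *SULF2* (0.06) without visceral and mesothelium marker cells. The cause of these turns was not tested. The 30 genes were picked for large ratios in the same cells, so that most stayed past 2-fold was largely set by that choice. The cycling shares stayed within their intervals in all settings run, while 17 of the shares for other markers left theirs. For *and1* or *and2*, a threshold of 50 counts gave 92.1%, 15.9% and 14.2%, and for *foxf1* or *foxf2a* the gate by *lum* alone gave 8.77% on *vegfc* plate 2. No paired analysis was possible because the plates share only well names and there was 1 *pdgfra* plate.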
